A study of Homo sapiens with 2 samples.

Results

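NUSAP1 peaks inside very long genes were taken as the peak summits of a chromatin immunoprecipitation (ChIP-seq) peak list that lay inside a protein-coding gene of 500 kb or more, from start to end, on chromosomes 1 to 22. A summit also had to lie more than 1 kb from either end of any protein-coding or lncRNA gene. The rule gave 857 of the 9043 summits in the list, or 9.62% of the 8911 summits on these chromosomes. It used position only, so the strength of a summit played no part in the choice. Of the other summits on these chromosomes, 3699 lay in the bodies of other genes, 3738 lay outside genes and 617 lay within 1 kb of a gene end. A further 25 summits inside very long genes lay within 1 kb of a gene end and were not counted.

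The cells were AsPC1, an established line of human pancreatic ductal adenocarcinoma cells, and the labels name no treatment or change of genotype. They were fixed for 10 minutes in 1% formaldehyde, and their chromatin was sheared by sonication. NUSAP1 was precipitated with a commercial antibody in 1 library, and 1 library was made from input chromatin without antibody. Each library started from 10 ng of DNA, was amplified for 13 cycles and was selected for lengths of 250 to 450 bp. The values below come from the peak list of the NUSAP1 library. There were no replicates, so no p-value is given for any comparison, and all intervals are 95% intervals that cover counting error only. The list gives no read totals, and no input file was used here.

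NUSAP1 is the nucleolar and spindle-associated protein, which binds and bundles microtubules during mitosis and also has a domain that can bind DNA. Human genes of great length consist almost wholly of introns, and many encode adhesion molecules, receptors and scaffolds of neurons. Many lie in late-replicating, gene-poor chromosome regions, and several coincide with common fragile sites, where chromosomes tend to break under replication stress. In a ChIP-seq list, a peak deep in such a gene is far from the gene's annotated start, although transcripts may start inside the gene.

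The reference table held 303 such genes among 18973 protein-coding genes, with a median length of 721 kb, and 66 of them were at least 1 Mb long. The longest was RBFOX1, which encodes a splicing regulator, at 2474 kb on chr16:5239721-7713340. At least 1 member summit lay in 220 of the 303 genes, against 37.6% of the 2906 protein-coding genes of 100 to 500 kb, which are shorter targets. The median was 2 summits per gene. A single summit was found in 53 genes, while 64 genes with 5 or more held 499 summits, or 58.2% of all members. SCHIP1 and the readthrough gene IQCJ-SCHIP1 overlap and shared 5 summits, which were counted once in every total over the genome.

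Starts of transcription inside the long genes were compared with the summits, since a peak in a gene body may mark an internal promoter. Of 843 members on chromosomes with listed starts, 2 lay within 1 kb of 1 of the 379 starts inside the counted gene bodies. That was 0.237% of members, where 0.290% of the gene-body length lay that close to a start. The nearest pair was in ZNF385D, which encodes a zinc finger protein. There a peak at chr3:21751283-21751481 overlapped the RefSeq promoter window of a start at 21751210 on the minus strand. That start lies inside the gene span, but it was the only start listed for this gene. The summit of the peak lay 260 bp before that start. The overlap, at chr3:21751283-21751460 of GRCh38.p14 on the minus strand, is shown because it was the only listed promoter window that a member's peak touched. Capitals mark the reverse-strand match to GGGCGG, the GC box:
ZNF385D: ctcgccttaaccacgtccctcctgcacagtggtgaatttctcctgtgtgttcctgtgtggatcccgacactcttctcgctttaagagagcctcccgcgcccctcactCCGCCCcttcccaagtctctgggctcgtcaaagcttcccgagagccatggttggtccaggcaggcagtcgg

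This stretch of 178 bases had a GC content of 60.1%, against a median of 56.7% over the same stretch of 35116 promoter windows, and 10 CG dinucleotides against a median of 6. GGGCGG, read on both strands, was found once here and in 30.9% of those windows at least once. The words TATAAA and CCAAT were not found, and occurred in 7.09% and 23.4% of the windows. The peak itself was weak, at 2.70-fold over its background and a q of 1. The other close pair was in DGKB, where a summit with a fold enrichment of 4.02 and 7 fragments lay 774 bp from an internal start.

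Very long genes as a whole held about as many NUSAP1 summits as the chromosomes around them. Member summits numbered 3.47 per Mb over 247 Mb of gene body, and the remaining 2336 Mb, also counted more than 1 kb from gene ends, held 7437 summits, or 3.18 per Mb. The long genes made up 9.55% of the counted sequence. When each chromosome's own density was applied to its long genes, 815 summits were expected, giving a ratio of 1.05 (0.982 to 1.12) for the 857 observed. The interval includes 1, so no difference was detectable at this number of summits. Against sequence outside all genes the ratio was 0.975 (0.911 to 1.04), and against the bodies of protein-coding genes of 100 to 500 kb it was 1.11 (1.04 to 1.19). Against the 1 Mb flanks on either side of each long gene it was 1.07 (1.003 to 1.15). Keeping the stretches of over 1 Mb without genes or summits, which are otherwise left out of the length, gave 1.08 (1.01 to 1.16), so the reference decided whether the interval included 1. By gene length the ratio was 1.102 (0.955 to 1.27) at 500 to 600 kb, 1.13 (0.987 to 1.29) at 600 to 800 kb and 1.07 (0.905 to 1.25) at 800 to 1000 kb. It was 0.943 (0.809 to 1.09) at 1000 to 1500 kb and 1.01 (0.823 to 1.22) in the 17 genes of 1500 kb or more, and all 5 intervals include 1. Over the 66 genes of 1 Mb or more the ratio was 0.957 (0.848 to 1.07).

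The members were weak peaks. Fold enrichment, the deposited ratio of the summit to the caller's local background, had a median of 3.03 (quartiles 2.79 and 3.51) and a maximum of 5.69. Summits in other gene bodies and outside genes both had a median of 3.01. From the fold enrichment and its p-value, the number of fragments at each summit could be worked out. Members at 4 fragments numbered 287, those at 5 numbered 326, those at 6 numbered 175, and 69 had 7 or more. The 69 were 8.05% of members (Wilson interval 6.41 to 10.1), against 11.9% of all summits on these chromosomes, 10.4% in other gene bodies, 12.4% outside genes and 22.4% at gene ends. A q under 0.05 was reached by 3 members, or 0.350% (0.119 to 1.02), against 1.25% of all summits on these chromosomes. By class the share was 0.487% in other gene bodies, which is inside the members' interval, 1.93% outside genes and 2.92% at gene ends. A q of 0.5 or more applied to 82.7% of members, so most single positions named below are not calls that pass a false discovery limit. The same applied to 85.7% of summits in other gene bodies, 81.9% outside genes and 79.7% at gene ends. At a fixed 5 fragments the caller's background was 0.850 fragments in members, 0.921 in other gene bodies and 0.906 outside genes.

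The ratio of long genes to the rest of the chromosome differed with summit strength. At 4 fragments the ratio was 1.20 (1.06 to 1.34), at 5 it was 1.07 (0.960 to 1.20), at 6 it was 0.981 (0.841 to 1.14), and at 7 or more it was 0.744 (0.579 to 0.942). For q under 0.05, where the rest of the chromosomes predicted 9.58 summits, it was 0.313 (0.0646 to 0.915). Neither end of this range held against every reference. At 4 fragments the ratio to intergenic sequence was 1.09 (0.965 to 1.22), and at 7 or more the ratio to genes of 100 to 500 kb was 0.888 (0.691 to 1.12). For q under 0.05, with 3 members, the ratio was 0.485 (0.100 to 1.42) to the 1 Mb flanks and 0.825 (0.170 to 2.41) to genes of 100 to 500 kb. Both of these intervals include 1, while the ratio to intergenic sequence was 0.180 (0.0371 to 0.526). Against the 1 Mb flanks the spread was smaller, from 1.14 (1.01 to 1.28) at 4 fragments to 0.927 (0.721 to 1.17) at 7 or more, and there the interval for the strongest summits included 1. The lower background at 5 fragments in long genes was measured on the same summits, and its part in this pattern was not tested.

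**Figure D1:**
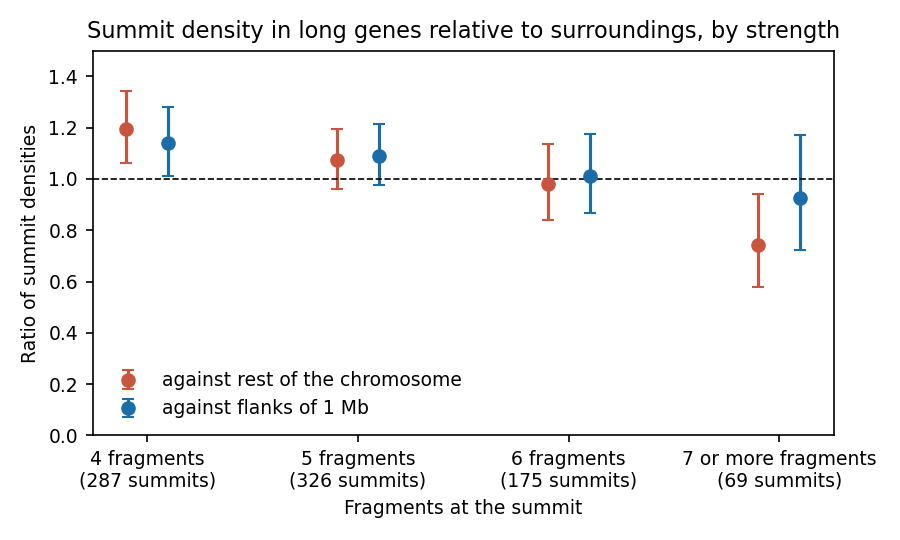
Ratio of NUSAP1 summit density inside very long genes to that of the rest of the same chromosome (red) and of the 1 Mb flanks (blue), on the y axis, for summits of 4, 5, 6 and 7 or more fragments on the x axis. Bars are 95% counting intervals, and the ratio to the rest of the chromosome runs from 1.20 at 4 fragments to 0.744 at 7 or more.

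The 3 members with a q under 0.05 lay in genes with unrelated roles. The strongest lay in DGKB, which encodes a diacylglycerol kinase, at chr7:14665273-14665593, with its summit at 14665451. It had 10 fragments over a background of 0.935, 5.69-fold enrichment and a q of 0.00104. The second lay in EXOC6B, which encodes a subunit of the exocyst that tethers secretory vesicles, at chr2:72401464-72401663. It had 10 fragments over 1.09, 5.26-fold enrichment and a q of 0.00432. The third lay in KHDRBS2, which encodes an RNA-binding protein, at chr6:61744915-61745245, with 9 fragments, 5.25-fold enrichment and a q of 0.00760. These summits were single strong peaks among weaker ones. The other 7 summits in DGKB had fold enrichments of 2.48 to 4.03, the other 4 in EXOC6B 2.44 to 3.13, and the other 8 in KHDRBS2 2.49 to 4.09.

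Just outside that limit was a summit in BBS9, which encodes a subunit of the BBSome that carries ciliary cargo. It lay at chr7:33299969-33300250, with 8 fragments, 4.72-fold enrichment and a q of 0.0558. The next summits were nearly alike, each with 7 fragments, 4.67- or 4.68-fold enrichment and a q of 0.0857. Among them were summits in SOX6, a transcription factor gene, MARCHF1, a ubiquitin ligase gene, CTNND2, the gene of a neuronal catenin, MCTP1, the gene of a calcium-binding membrane protein, TMEM117 and RYR2, the cardiac calcium release channel gene. A pair of summits had a high background in place of a high fold. In the annotated span of RANBP2, a nucleoporin gene, 29 fragments stood over a background of 13.5. That gave a ratio of 2.07 and a q of 0.722. Summits in this span lay 444 to 737 kb from the gene's annotated start. In FOXP1, a transcription factor gene, the fold enrichment of the other summit was 2.14.

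Summit density in long genes varied widely between chromosomes. Copy number, mappability and read depth along the chromosomes were not measured here, and their part in the densities of chromosomes and blocks was not tested. Density ranged from none on chromosomes 21 and 22, which hold 2 and 3 long genes, and 0.453 per Mb on chromosome 14 to 8.59 per Mb on chromosome 11. The density of the rest of the chromosome was also highest on chromosome 11, at 5.89 per Mb, and was 0.823 per Mb on chromosome 14. On chromosome 11 the ratio was 1.46 (1.19 to 1.77), from 122 summits in 16 genes, and without that chromosome the ratio over all others was 1.00. On chromosome 8 it was 0.502 (0.270 to 0.859), from 14 summits in 17 genes. On chromosome 9 it was 1.78 (0.999 to 2.98), from 17 summits in 10 genes. Each of the other chromosomes with a long gene had an interval that included 1, and chromosome 19 held no long gene. A single gene carried much of the count on 2 of these chromosomes. LINGO2 held 13 of the 17 summits on chromosome 9, and without it the ratio there was 0.483. CSMD3 held 9 of the 14 on chromosome 8, and without it the ratio was 0.196.

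**Figure D2:**
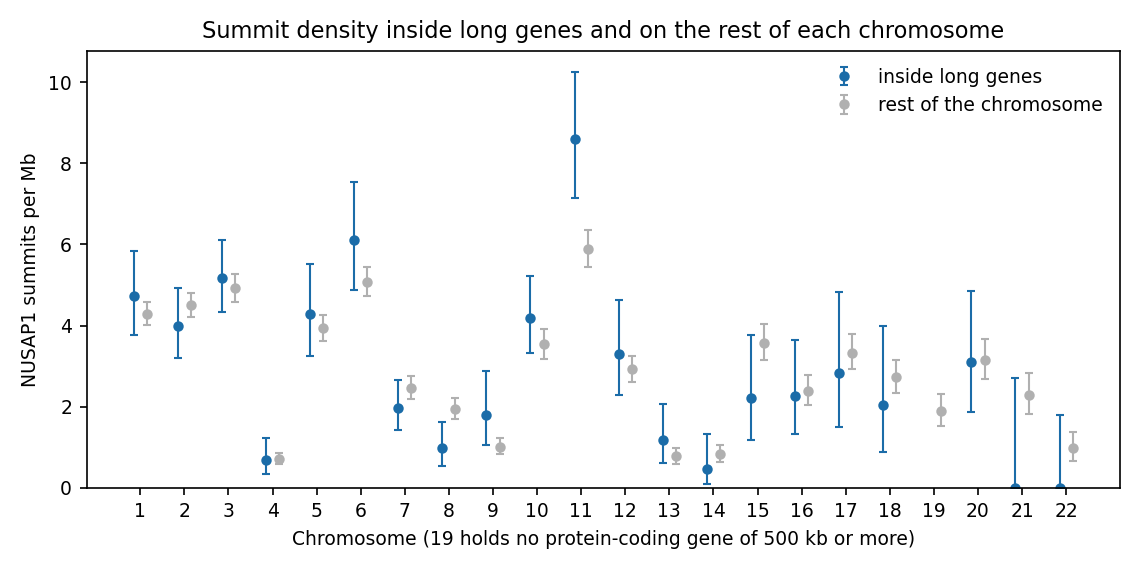
NUSAP1 summits per Mb (y axis) inside very long genes (blue) and on the rest of the same chromosome (grey) for chromosomes 1 to 22 (x axis), with 95% Poisson counting intervals. The blue and grey points move together across chromosomes, and chromosome 11 stands highest for both, at 8.59 and 5.89 per Mb.

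Single long genes spread widely around their chromosome's density. The exact interval of a gene's count lay wholly above the rest of its chromosome for 25 of the 303 genes (8.25%) and wholly below for 5 (1.65%). Among the 2906 genes of 100 to 500 kb the same shares were 1.65% above and 0% below. Those shorter genes had a median expected count of 0.522, against 2.38 for the long genes, so fewer of them could leave the interval. A long gene with no summit could be called below only if it was expected to hold at least 3.69, which applied to 62 genes. The median ratio over the 303 genes was 0.840, and 128 had a ratio above 1. These counts come from many genes and no p-values, and neighbouring genes share their surroundings.

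DLG2, which encodes a scaffold protein of the postsynaptic density and belongs to the common fragile site genes, held the most summits. Its 25 summits on chr11:83455012-85628373 came to 11.6 per Mb, against 5.89 on the rest of chromosome 11, a ratio of 1.97 (1.28 to 2.91). They were spread along the whole gene, with 6, 2, 6, 3 and 8 summits in 5 equal segments from the start and a widest gap of 321 kb. None was strong, with fold enrichments of 2.46 to 4.43 and a smallest q of 0.146. LINGO2, which encodes a leucine-rich repeat membrane protein of neurons, had the highest ratio of any gene with 3 or more summits, 10.2 (5.42 to 17.4). Its 13 summits on chr9:27937617-29213601 came to 10.3 per Mb on a chromosome whose other sequence held 1.01 per Mb. They fell into separate groups, 7 near the annotated start of the gene span and 6 toward its end, with 686 kb between them and fold enrichments of 2.48 to 4.10. The only promoter start listed for LINGO2 lay between the groups, and the nearest summit was 300 kb from it.

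Among the other genes above their chromosome were several that encode cell adhesion proteins. NLGN1, which encodes a postsynaptic adhesion protein, held 11 summits, with a ratio of 2.52 (1.26 to 4.50). CLSTN2, which encodes a calsyntenin of the postsynaptic membrane, had the highest density of these genes, with 13 summits or 20.8 per Mb and a ratio of 4.22 (2.25 to 7.21). Genes on chromosome 11 had similar counts. NTM, which encodes the adhesion protein neurotrimin, held 13 with a ratio of 2.34. TENM4, which encodes a teneurin, held 12 with a ratio of 2.62. KIRREL3, which encodes a nephrin-like adhesion protein, held 11 with a ratio of 3.39. FAT3, which encodes a large atypical cadherin, held 12 with a ratio of 3.06. On chromosome 10, CTNNA3, which encodes an alpha catenin, held 13 with a ratio of 2.01. On chromosome 6, NKAIN2, which encodes a protein that interacts with the sodium pump, held 13 with a ratio of 2.51 and had 4 summits of 7 or more fragments, the most of any gene named here. Counts in single digits stood behind the ratios of CPNE4 (copine, a calcium-dependent membrane-binding protein; 8 summits, ratio 3.28), SORCS3 (a sorting receptor; 8, ratio 3.68), MECOM (a zinc finger transcription factor; 9, ratio 3.25) and NALF1 (3, ratio 5.62 with an interval of 1.16 to 16.4).

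No member summit lay in 83 of the 303 genes. The 5 longest with none were PTPRD, a receptor tyrosine phosphatase gene, CSMD1, which encodes a complement-control transmembrane protein, NRXN3, a neurexin gene, CCSER1 and MAGI2, a junction scaffold gene. For PTPRD, NRXN3, CCSER1 and MAGI2 the absence was within counting error of their chromosome's density. CSMD1, at 2059.6 kb, was called below, with an upper limit of the ratio of 0.931. CNTNAP2, which encodes a neurexin-family protein and is 2304 kb long, held 1 summit, with a ratio of 0.178 (0.00450 to 0.990). The other genes called below, EPHA6, an ephrin receptor gene, ZBTB20, a transcription repressor gene, and CDH18, a cadherin gene, held none, with upper limits of 0.803, 0.920 and 0.861. CSMD3, of the same family as CSMD1, held 9. The flanks of these genes differed likewise, with no summit beside CSMD1 and 7.56 per Mb beside CSMD3. The interval for NRXN3 reached 2.68, so its count alone does not set it below its chromosome.

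Some of the high and low genes lay in long blocks along the chromosomes. These blocks were chosen after their values were seen and are given as descriptions. On chromosome 3 the neighbouring long genes EPHA6, ZBTB20, LSAMP, STXBP5L and KALRN held no summit in 3.56 Mb of gene body, where the chromosome's rate gives 17.5. Farther along the same chromosome CPNE4, CLSTN2 and SLC9A9 held 28 in 1.69 Mb, or 16.6 per Mb. On chromosome 11 the 4 genes from TENM4 through DLG2 and GRM5 to FAT3 held 53 summits, or 12.8 per Mb, and the 3 genes KIRREL3, NTM and OPCML held 33, or 12.7 per Mb. The 8 long genes from SBF2 to SHANK2, nearer the start of the same chromosome, held 32, or 5.23 per Mb (3.58 to 7.39). On chromosome 9 the 5 genes from GLIS3 to SLC24A2 held 1 summit in 5.26 Mb.

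Density in the flanks of the long genes tended to follow density inside them. Over the 303 genes, density inside the gene and density in its 1 Mb flanks had a Spearman coefficient of 0.71, and density inside the gene and that of the rest of the chromosome 0.56, while gene length gave -0.01. All points come from 1 library, and neighbouring genes can share flanks, so these coefficients are descriptions. The 33 genes with no summit in their flanks held 0.649 per Mb, the 84 with up to 2 per Mb in the flanks held 0.882, the 113 with 2 to 5 held 4.15, and the 73 with 5 or more held 6.66. The 25 genes above their chromosome, chosen by their count inside, had flanks at 6.68 per Mb and an inside density of 11.8 per Mb. The 273 genes called neither way had 2.90 and 2.77. The 5 genes below had flanks at 1.40 per Mb. The caller's background at 5 fragments was 0.949 in the 25 genes and 0.850 in the 273. Flank density and background thus moved with the density inside the genes, and their part in it was not tested.

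**Figure D3:**
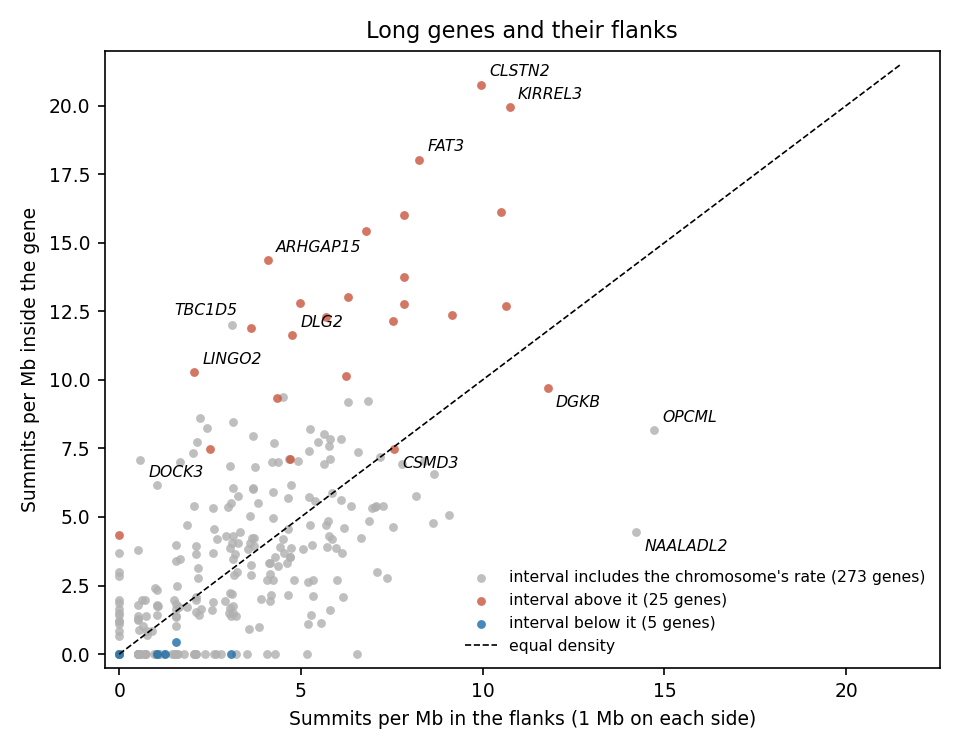
Summits per Mb inside each of the 303 very long genes (y axis) against summits per Mb in their 1 Mb flanks (x axis). Red points are the 25 genes above their chromosome's rate and blue points the 5 below it. Most red points lie to the right as well as high, and the dashed line marks equal density inside and outside.

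Measured against their own flanks, fewer genes stood out. Of the 284 genes with a summit in the gene or its flanks, the interval of the ratio lay above 1 for 5 (1.76%) and below 1 for 1 (0.352%). DLG2 had a ratio of 2.44 (1.103 to 5.95) to its flanks and LINGO2 5.01 (1.55 to 21.1). ARHGAP15, which encodes a GTPase-activating protein for Rac, had 9 summits and a ratio of 3.51 (1.20 to 10.5). These 3 genes were also above the rest of their chromosome, and the other 22 of the 25 were not called above their flanks. The interval against the flanks also counts the error of the few flank summits, so it is wider than that against the chromosome, and the 2 numbers of calls are not alike. Of the 25, 23 had more summits per Mb inside than in the flanks, among them TENM4 with a ratio of 2.28, FAT3 with 2.18 and CLSTN2 with 2.09. The 25 were chosen by a high count inside, which by itself raises these ratios, so the 23 are a description only. The remaining genes above their flanks were TBC1D5, which encodes a regulator of retromer transport, at 3.85 (1.11 to 13.9), and DOCK3, which encodes an exchange factor for Rac. DOCK3 had 5 summits against 1 in its flanks, and its ratio of 12.2 had an interval from 1.36 to 577. NAALADL2 was the gene below its flanks, with 6 summits at 4.45 per Mb beside flanks at 14.2 per Mb, a ratio of 0.313 (0.100 to 0.842). Of the 25 genes above their chromosome, DGKB and CSMD3 had a ratio under 1 to their flanks. DGKB had a ratio of 3.95 (1.70 to 7.78) to its chromosome and 0.824 (0.319 to 1.91) to its flanks, and CSMD3 had 3.85 (1.76 to 7.31) and 0.988 (0.381 to 2.41).

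By the roles of their products, the long genes were described in 8 lists, which overlap in a few genes. Neuronal and synaptic adhesion genes had the highest summed ratio. Of 23 such genes, 16 held a summit, 122 summits in all, and the ratio was 1.44 (1.20 to 1.72), against 1.05 for all long genes. The median gene of the list had a ratio of 0.858, close to the 0.840 of all long genes, and 6 of the 23 were above their chromosome and 1 below, beside 25 (8.25%) and 5 (1.65%) of all 303 long genes. CLSTN2 and NTM held 13 of the 122 summits each, and TENM4 held 12. Against the flanks the list's ratio was 1.08, beside 1.07 for all long genes. Receptor phosphatase, receptor kinase and guidance genes had the lowest ratio, 0.491 (0.326 to 0.709), with 28 summits in 11 of 16 genes. None of the 28 had 7 or more fragments, a share of 8.05% over all members, which gives few in a list of this size. ERBB4, a receptor kinase gene, and the guidance receptor genes ROBO1 and ROBO2 held 5 summits each, and PTPRM, a receptor phosphatase gene, held 4. None of the 16 was above its chromosome and 1 was below, beside 8.25% and 1.65% of all long genes. A list of 16 genes is too small to compare these shares. Against the flanks the list's ratio was 0.777.

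The other lists had intervals that included 1. Common fragile site genes held 96 summits in 15 of 21 genes, a ratio of 1.00 (0.813 to 1.23), and DLG2, NKAIN2, CTNNA3 and DAB1, the gene of an adaptor in reelin signalling, held 60 of them. In the same list, FHIT, which spans the best known fragile site, held 3 summits in 1504 kb, and the oxidoreductase gene WWOX held none. Neither was among the 5 genes called below their chromosome. Cadherin, catenin and junction scaffold genes had a ratio of 0.944 (0.705 to 1.24), with 52 summits in 11 of 14 genes. PCDH15, a protocadherin gene, held 7 and PARD3B, a cell polarity gene, held 5. Ion channel and transmitter receptor genes had 0.977 (0.688 to 1.35), with 37 summits in 12 of 15 genes, of which RYR2 and the calcium channel subunit gene CACNA2D3 held 8 each. The metabotropic glutamate receptor genes GRM5 and GRM7 held 4 each.

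Intracellular signalling enzyme genes had a ratio of 0.998 (0.745 to 1.31), with 52 summits in 12 of 15 genes. DGKB and MACROD2, which encodes an ADP-ribose hydrolase, held 8 each, PRKG1, a cyclic GMP-dependent kinase gene, held 7 and PDE1C, a phosphodiesterase gene, held 6. Transcription and RNA-binding factor genes had 1.18 (0.908 to 1.51), with 63 summits in 15 of 20 genes. RBFOX1 held 10, MECOM 9, and SMYD3, which encodes a lysine methyltransferase, and SOX6 held 7 each. Cytoskeleton, cilium and cell division genes had 0.957 (0.667 to 1.33), with 35 summits in 9 of 15 genes. The sperm flagellum gene SPAG16 held 6, and KIF26B, a kinesin-family gene, the ankyrin gene ANK3 and the sarcoglycan gene SGCD held 5 each.

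Along the genes the summits showed no marked preference for either end. Strand was known for 251 of the 303 genes, which held 733 members when the 5 summits shared by SCHIP1 and IQCJ-SCHIP1 are counted for both. Each gene was divided into 5 equal segments of its annotated span. The annotated start is an end of that span and need not be a listed promoter start, as in LINGO2. From the segment nearest the annotated start to the last, density was 4.03, 3.72, 3.23, 3.26 and 3.65 per Mb. The interval of the first segment (3.44 to 4.69) overlapped that of the third (2.71 to 3.83). Single genes departed from this in both directions. NLGN1 held 7 of its 11 summits in the second segment, LINGO2 7 of its 13 in the first, CLSTN2 5 of its 13 in the last, and KIRREL3 5 of its 11 in the fourth. In RBFOX1 the 10 summits lay over 2249 kb with a gap of 687 kb, and CTNNA3 had a gap of 683 kb between its 5 summits nearest the start and the other 8.

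Neighbouring members in a gene were a median of 90.8 kb apart (quartiles 38.2 and 193 kb). Of 642 neighbour distances, with those between shared summits counted for both genes, 43 (6.70%) were within 10 kb and 2 within 1 kb. The closest pair, in PTPRM, had summits at 7933010 and 7933408 on chromosome 18, 398 bp apart, each with 6 fragments. The other lay in CLSTN2, at 140135954 and 140136682 on chromosome 3, 728 bp apart, with 5 and 4 fragments. Peaks were narrow, and 53.8% of members had the smallest width in the list, 199 bp, against 51.1% in other gene bodies. Some members also lay in nested genes. A lncRNA gene also covered 57 of the 857, another protein-coding gene covered 5, and 3 lay in pseudogenes, while none lay in a miRNA, snoRNA, tRNA or snRNA gene. The share of gene-body length under nested genes was not measured, so these counts are descriptions only. The other protein-coding genes were IQCJ, SH3RF3 and VTI1B.

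**Figure D4:**
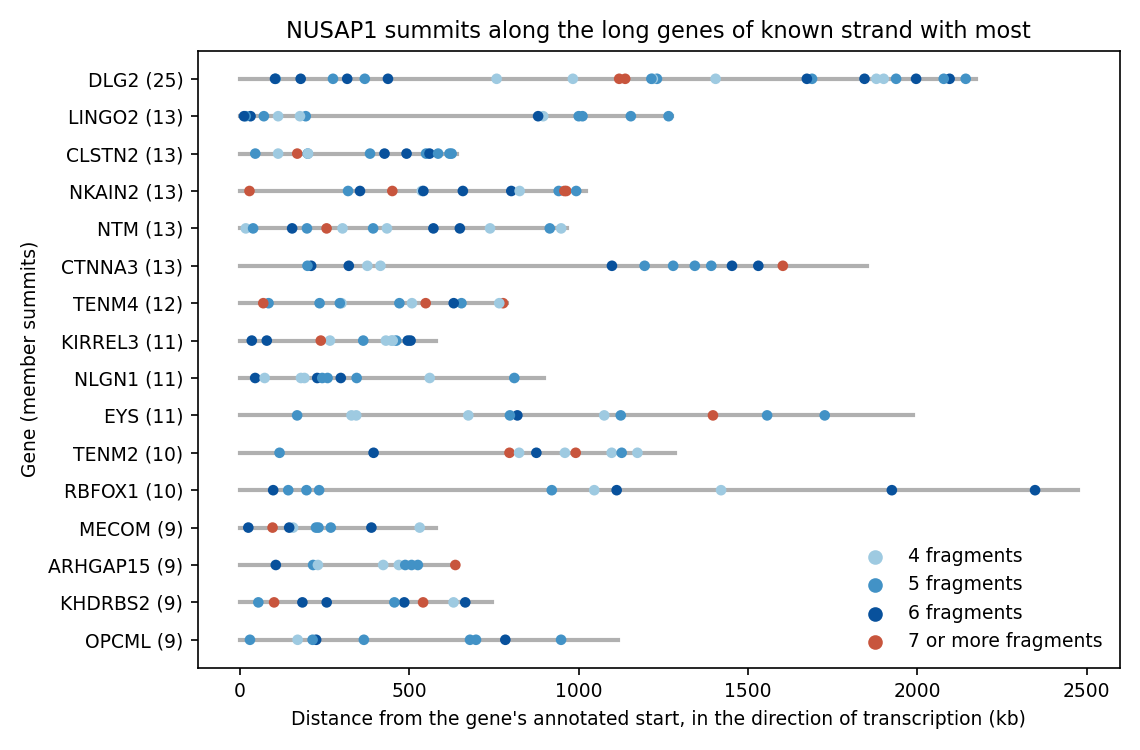
Positions of member summits along 16 of the very long genes with 9 or more summits and known strand, as distance in kb from the annotated start in the direction of transcription (x axis). Each row is a gene with its count, each point a summit coloured by its number of fragments, and the grey line is the gene. DLG2 is covered along its length, while LINGO2 has 7 summits near the annotated start of its span and none over the next 686 kb, where its only listed promoter start lies.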

How the data were processed

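NUSAP1 ChIP-seq and input chromatin of AsPC1 cells gave 1 library each, and the analysis used the deposited narrowPeak list of the NUSAP1 library. Per the submitters' processing notes, the tools were bcl2fastq 2.17, Trimmomatic 0.33, Bowtie 1.1.2 and MACS2 2.1.0 on build hg38, and settings are not given in the sources used here. The list's deposited columns hold a display score, which equals the whole part of 10 times the -log10 p in each of 9043 lines, the enrichment of the summit as a ratio to its local background (fold), the -log10 p-value and -log10 q-value from the authors' caller, and, as a further deposited column, the summit's offset in bp. All lines had a p of 0.00497 or less, so weaker positions are not in the list, and peaks come from 1 library.

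Fragments and background at each summit were solved from the Poisson p-value and the ratio, taken as (fragments + 1) divided by (background + 1). All 9043 were recovered to within 0.001 of -log10 p. The lowest background was 0.708. Genes and promoter windows, 250 bases before and 50 after a start, came from RefSeq tables of GRCh38.p14, the same build, and 789 genes not placed on a chromosome were left out. Density is summits per Mb more than 1 kb from gene ends, without stretches of over 1 Mb that hold neither genes nor summits. A ratio divides the member count by the count expected from the rest of each chromosome, with the exact Poisson 95% interval of the member count. Ratios to flanks of single genes and ratios of chromosomes use the exact interval that also counts the error of the reference, and shares use Wilson's. Summits cluster, so true intervals are wider. The scripts were tested on simulated data.

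Genes are named by a rule: the 10 with most members, the 10 with the highest ratio among those with 3 or more, those of the 10 members with the smallest q, the 10 longest, the 5 longest without a member, and up to 4 per list. Some genes that meet it are not reported here. ZNF385D, RANBP2, FOXP1, NLGN1, EPHA6, ZBTB20, CDH18, ARHGAP15, TBC1D5, DOCK3, NAALADL2, FHIT, WWOX, SCHIP1, IQCJ-SCHIP1 and the blocks of neighbouring genes fall outside the rule and were picked once their values had been seen. IQCJ, SH3RF3 and VTI1B are named because they also cover members. Members and lists were chosen with earlier results of these data known. Peak sequences were not read, since no genome was used here, so the planned count of motifs in peaks was not made. Alternatives covered the length limit, the distance from gene ends, the reference, summit strength, merging of peaks and each chromosome left out. The code ran on Python 3.11.15 with scipy 1.17.1 for intervals, pandas 2.3.3 and numpy 2.4.6 for tables, and matplotlib 3.10.9 for plots.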

Additional observations from a re-analysis of the deposited data

How the results depend on the processing

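The pooled ratio of 1.05 stayed within its interval under gene ends of 5 kb or none, a limit of 300 kb, flanks of 500 kb, 1 Mb or 2 Mb, merged peaks, a background limit and without DLG2. It ranged from 1.00 without chromosome 11 to 1.07 without chromosome 2 over the 22 chromosomes left out in turn. It moved to 0.957 for genes of 1 Mb or more, 0.975 against intergenic sequence, 0.744 for summits of 7 or more fragments and 0.313 for q under 0.05. Chosen after seeing the data, it was 1.13 for 4 or 5 fragments and 0.927 for 7 or more against flanks of 1 Mb, and the flanks of 500 kb and 2 Mb were also added then. The count of 857 members became 1413 at 300 kb, 283 at 1 Mb, 69 at 7 or more fragments and 3 at q under 0.05, as fewer or more summits entered. The share with q under 0.05 was 0% in genes of 1 Mb or more. Genes above their reference numbered 5 against flanks and 7 at 7 or more fragments, 6 of them among the 25, and genes below numbered 1 and 0. Of 53 named genes, 49 had a ratio to flanks. In 8 of them a ratio over 1 became one under 1, among them 2 that were above their chromosome, DGKB at 0.824 and CSMD3 at 0.988, and in 2 a ratio under 1 became one over 1. The cause was not tested. No paired analysis was possible because each group had 1 library. A count of a few summits per gene limits what can be seen: a gene expected to hold under 3.69 cannot be called below.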

Other observations

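Chromosome X was outside the counted chromosomes. Its 11 protein-coding genes of 500 kb or more held 5 summits more than 1 kb from gene ends. The teneurin gene TENM1 held 2, FGF13, a gene of an intracellular fibroblast growth factor family member, held 2, and IL1RAPL2, a receptor accessory protein gene, held 1. The dystrophin gene DMD, at 2220.2 kb, held none.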
